A study of Mus musculus with 4 samples.

Results

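The long noncoding RNAs described here were chosen by name, and 9 of 10 of them were listed in the deposited tables of liver mRNA, among 8797 genes in all. The names were Meg3, Malat1, Neat1, Gas5, Snhg1, Snhg3, Snhg6, Snhg8, Snhg11 and Snhg12. Snhg11 was not listed and was not analysed here. All 9 had an expression value in each mouse, and 6 of them (Meg3, Malat1, Gas5, Snhg3, Snhg8 and Snhg12) had a B6-allele frequency in each mouse. The livers came from 4 female F1 hybrids at 5 months of age. In 2 of them the mother was MSM (MSM/Ms, derived from Mus musculus molossinus) and the father B6 (C57BL/6 J), and in the other 2 the mother was B6 and the father MSM. These are called MSM-mother and B6-mother mice, with the replicate numbers of the labels. All 4 are hybrid at every locus that differs between the strains, and the crosses differ in which strain came through the mother. The mice are described as biological replicates, and neither the labels nor the methods say whether any shared a litter.

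Expression was given in FPKM, which scales mapped fragments to transcript length and to the fragments mapped in the library, so that levels can be compared between genes. The B6-allele frequency is the B6 share of those reads that could be assigned to an allele, from 0 to 1. The summed FPKM ran from 529024 to 671875 over the 4 libraries. No read counts per gene were given, so the depth behind a value is unknown. The precision of a value was judged from the spread between mice. Of the 8 hepatocyte markers looked up, 7 were listed, with a summed FPKM of 28511 to 36781 per mouse. The hepatocyte marker not listed was Alb, the albumin gene. None of the 5 neuronal and 6 lymphocyte markers was listed, but being unlisted does not by itself show that a gene was not expressed. Cyp2e1, an abundant hepatocyte enzyme, was listed at 0 in both MSM-mother mice although it had a B6-allele frequency in them. None of the 9 long noncoding RNAs was listed at 0 in any mouse.

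Long noncoding RNAs are transcribed and mostly spliced and polyadenylated like mRNAs, but do not encode a conserved protein. Malat1 and Neat1 stay in the nucleus, Malat1 in nuclear speckles and Neat1 as the scaffold of paraspeckles. Gas5 and the Snhg genes are hosts of small nucleolar RNAs (snoRNAs), which are released from introns and guide the chemical modification of ribosomal RNA. Their spliced transcripts are short-lived, and several are degraded by nonsense-mediated decay. Meg3 lies in the imprinted Dlk1-Dio3 domain, where noncoding RNAs are expressed from the maternally inherited chromosome.

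The GENCODE M21 annotation of mm10 shows what the members share. The 6 listed hosts contain 25 annotated snoRNA genes on their own strand, from 60 to 205 nt long, and all 25 lie within an intron of at least 1 transcript of the host. Gas5 (chr1:161034422-161038539, plus strand) holds 9, Snhg1 (chr19:8723475-8726443, plus strand) holds 8 and Snhg12 (chr4:132308623-132311024, plus strand) holds 4. Snhg3 (chr4:132348014-132353686, minus strand) holds 2, which are Snora73a and Snora73b. Snhg6 (chr1:9941959-9944118, minus strand) holds Snord87, and Snhg8 (chr3:123507552-123508404, minus strand) holds Snora24. Meg3 (chr12:109541001-109571726, plus strand), Malat1 (chr19:5795690-5802672, minus strand) and Neat1 (chr19:5824708-5845478, minus strand) hold none.
Members also lie close together. Malat1 and Neat1 are separated by 22.0 kb, and Snhg12 and Snhg3 by 37.0 kb. Snhg3 lies almost wholly inside the annotated span of Rcc1, a protein-coding gene on the same strand, so reads could be divided between them, and values of Snhg3 are uncertain for that reason. Gas5 overlaps Zbtb37 and Snhg6 overlaps Mcmdc2, but on the opposite strand. The libraries were made with a directional kit and aligned with the strand set.

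Host genes of snoRNAs are known for transcription start sites that begin in a run of pyrimidines. The sequences around the annotated start (RefSeq, GRCm38.p6, which has the coordinates of mm10) are shown for the 7 members with an entry, since a start of this kind is a feature of the family that the choice of members did not use. Each run gives 45 bases before the start and 25 bases from it, 5′ to 3′ on the strand of the gene. Capitals mark the first 8 transcribed bases, and the letters TATA where these lie between 40 and 20 bases before the start.
Snhg1, chr19:8723442-8723511, plus strand: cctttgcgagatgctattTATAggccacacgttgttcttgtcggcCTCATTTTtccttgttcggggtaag
Snhg12, chr4:132308633-132308702, plus strand: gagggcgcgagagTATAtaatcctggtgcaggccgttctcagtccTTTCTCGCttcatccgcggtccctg
Snhg8, chr3:123508312-123508381, minus strand: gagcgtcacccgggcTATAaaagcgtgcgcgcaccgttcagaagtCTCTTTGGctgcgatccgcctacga
Gas5, chr1:161035121-161035190, plus strand: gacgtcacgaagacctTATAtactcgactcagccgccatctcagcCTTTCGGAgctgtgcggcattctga
Snhg3, chr4:132353662-132353731, minus strand: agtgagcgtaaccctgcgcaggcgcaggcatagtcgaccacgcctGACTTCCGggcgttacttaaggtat
Malat1, chr19:5802648-5802717, minus strand: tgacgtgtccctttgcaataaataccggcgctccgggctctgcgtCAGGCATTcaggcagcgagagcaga
Meg3, chr12:109540951-109541020, plus strand: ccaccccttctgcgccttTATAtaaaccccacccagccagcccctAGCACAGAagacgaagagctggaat

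Of the first 8 bases, Snhg1 and Snhg12 had 7 pyrimidines (C or T), Snhg8 had 6, and Gas5 and Snhg3 had 5. Malat1 had 4 and Meg3 had 2. The count takes pyrimidines anywhere in these bases and does not require a run. Snhg3 begins with the purines G and A, and the pyrimidines of Snhg1 are interrupted by an A. Over all 32851 start sites in the RefSeq table the median was 4, 32.9% had 5 or more and 5.65% had 7 or 8. The count of 5 was set after the sequences were seen. Gas5 has a further annotated start upstream, with 3 pyrimidines, and Meg3 has a further start downstream, with 2. The letters TATA, which read the same on both strands, stood in the window before a start of 4 of the 5 hosts and of Meg3. Counted by start site this was 5 of 9, against 5.34% of all start sites. These matches describe the annotated starts and not the starts used in these livers.

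Levels differed widely among the 9 members. The libraries were made from poly(A) RNA, so these are levels of RNA caught by its poly(A) tail, and forms without one may be missed. Malat1 had an FPKM of 49.5 and 88.1 in the MSM-mother mice and 63.5 and 59.6 in the B6-mother mice. Its mean of 65.2 ± 16.4 (SD, n = 4 mice) was above that of 86.3% of the listed genes. Neat1 followed, with 17.6 and 29.9 in the MSM-mother mice, 34.4 and 20.8 in the B6-mother mice, and a mean of 25.6 ± 7.79.
Among the hosts, Snhg6 was the highest, with 22.0 and 14.997 in the MSM-mother mice and 16.9 and 21.9 in the B6-mother mice. Snhg12 was at 9.79 and 11.9 in the MSM-mother mice and 12.2 and 10.2 in the B6-mother mice. Gas5 was the lowest of all members by its mean, with 4.35 and 4.94 in the MSM-mother mice and 5.03 and 4.57 in the B6-mother mice. Snhg6, Snhg12 and Gas5, like Malat1 and Neat1, had overlapping values in the crosses.
In order of the mean FPKM the members were Malat1, Neat1, Snhg6, Snhg3, Snhg12, Snhg1, Snhg8, Meg3 and Gas5. Malat1 was separated from the next member, since its lowest mouse (49.5) was above the highest mouse of Neat1 (34.4). Each of the other neighbours in this order had overlapping ranges. The median of the mean FPKM over all listed genes was 11.5, and the last 5 members in this order were below it.

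**Figure D1:**
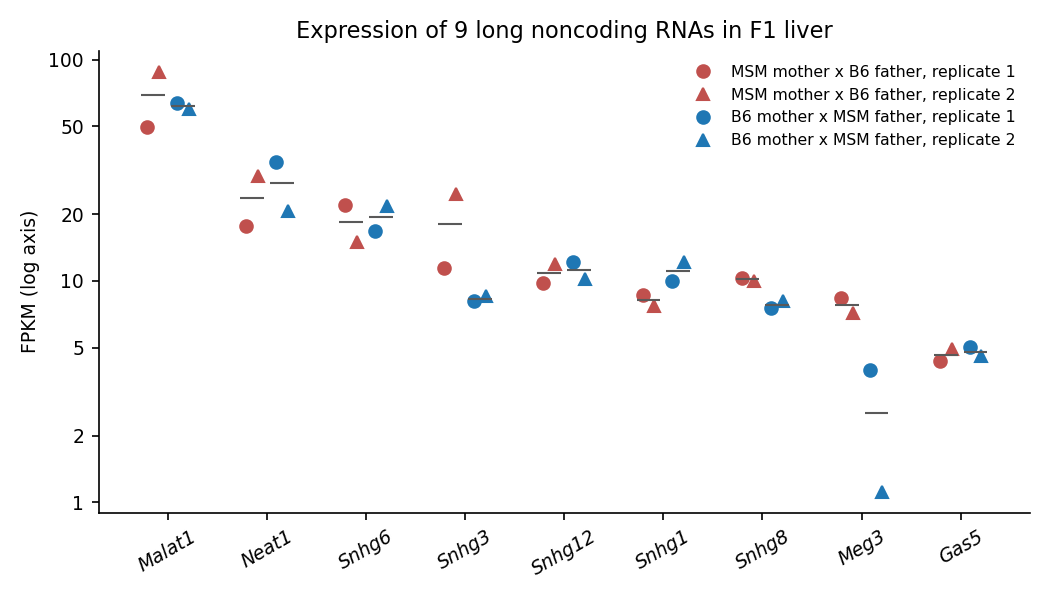
FPKM of the 9 members in each of the 4 mice, on a log axis, with short lines for the mean of each cross (n = 2 mice). Malat1 was above all other members in every mouse, and Meg3 had the widest range, from 1.12 to 8.40.

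The members differed also in how far the mice of a cross lay apart. Pooled over the crosses, the SD of log2(FPKM + 1) was 0.62 for Meg3, 0.52 for Snhg3, 0.51 for Neat1 and 0.41 for Malat1, against a median of 0.13 over all listed genes. Each of these 4 was larger than that of at least 96.3% of the listed genes. Snhg8 was among the steadier genes, with 0.05, and Gas5 had 0.10.

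The comparison of the reciprocal crosses asks whether the level of a gene depends on which strain was the mother. Expression was compared with limma on log2(FPKM + 1), on which scale the change of a low gene is understated. None of the 9 members passed an adjusted p-value of 0.05 (limma with Benjamini-Hochberg adjustment over 8797 genes), and 4 of 9 had an unadjusted p-value under 0.05. Over all genes 0.0455% passed the adjusted threshold and 8.87% the unadjusted one, 4.46% as higher and 4.41% as lower in the MSM-mother mice. All 4 genes behind the first percentage were listed at 0 in both mice of a cross. Of the 9 members, 4 had crosses that did not overlap in FPKM, against 42.4% of all genes (23.0% higher in the MSM-mother mice and 19.4% higher in the B6-mother mice). With 2 mice against 2, an exact permutation test cannot give a p below 0.333.

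Meg3 had the largest difference among the members. Its FPKM was 8.40 and 7.17 in the MSM-mother mice and 3.95 and 1.12 in the B6-mother mice. Both mice of the first cross were above both of the second. The difference in log2(FPKM + 1) was 1.44 (SE 0.38, 95% interval 0.50 to 2.38, limma adjusted p = 0.441), and the ratio of the mean FPKM was 3.07. It was 0.82 without B6-mother replicate 2, and 2.05 without B6-mother replicate 1, where the adjusted p was 0.0218 and the remaining mouse of that cross was assumed to vary like the others.
Snhg3, the host of both copies of Snora73, was at 11.5 and 24.7 in the MSM-mother mice and at 8.11 and 8.52 in the B6-mother mice. MSM-mother replicate 2 was higher than each of the other mice by more than 2-fold, and the crosses did not overlap. The difference was 0.94 (SE 0.32, 95% interval 0.14 to 1.74, limma adjusted p = 0.521). It was 0.42 without that mouse, and 1.46 without replicate 1 of the same cross, where the adjusted p was 0.0484. Rcc1, with which Snhg3 overlaps, was at 2.62 and 3.50 in the MSM-mother mice and 2.44 and 2.68 in the B6-mother mice.
Snhg8, which carries Snora24, was at 10.3 and 9.98 in the MSM-mother mice and 7.51 and 8.10 in the B6-mother mice. The crosses did not overlap, and the difference was 0.34 (SE 0.11, 95% interval 0.08 to 0.61, limma adjusted p = 0.489). Snhg1 had the opposite order, with 8.64 and 7.73 in the MSM-mother mice and 9.99 and 12.2 in the B6-mother mice, again without overlap. Its difference was -0.39 (SE 0.13, 95% interval -0.72 to -0.06, limma adjusted p = 0.521).
The other 5 members had intervals that include 0. These were -0.57 to 0.78 for Malat1, -0.99 to 0.57 for Neat1, -0.61 to 0.45 for Snhg6, -0.40 to 0.32 for Snhg12 and -0.34 to 0.26 for Gas5. Over the 9 members 4 differences were above 0 and 5 below, with a median of -0.04, against a median of 0.02 over all genes.
In a piece of tissue, fewer cells of a type and less RNA per cell cannot be told apart. Of the 7 listed hepatocyte markers, 3 (Apoa1, Ttr and Tat) were higher in both MSM-mother mice, against 23.0% of all genes. Cyp2e1, listed at 0 in the MSM-mother mice, was the only 1 without overlap the other way. Some markers of other cells also differed between the crosses. Of 10 Kupffer cell or macrophage markers, 8 were listed and none at 0, and 7 of these were higher in both B6-mother mice than in both others, against 19.4% of all genes. Their summed FPKM was 214 to 250 in the MSM-mother mice and 278 to 309 in the B6-mother mice. The summed FPKM of the 7 sinusoidal endothelial markers, all listed, was 152 to 172 and 174 to 187, and 4 of the 7 were higher in both B6-mother mice. That of the 4 listed erythroid markers of 5 was 128 to 308 and 449 to 769, which rests on the globin genes Hba-a2 and Hbb-bs, while Hba-a1 and Alas2 overlapped between the crosses. That of the 4 listed stellate cell markers of 7 was 95.7 to 108 and 80.9 to 87.8, which rests on Dcn, while Reln, Col3a1 and Rgs5 overlapped. The part of these cells in the differences of Meg3, Snhg3, Snhg8 and Snhg1 was not tested.

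**Figure D2:**
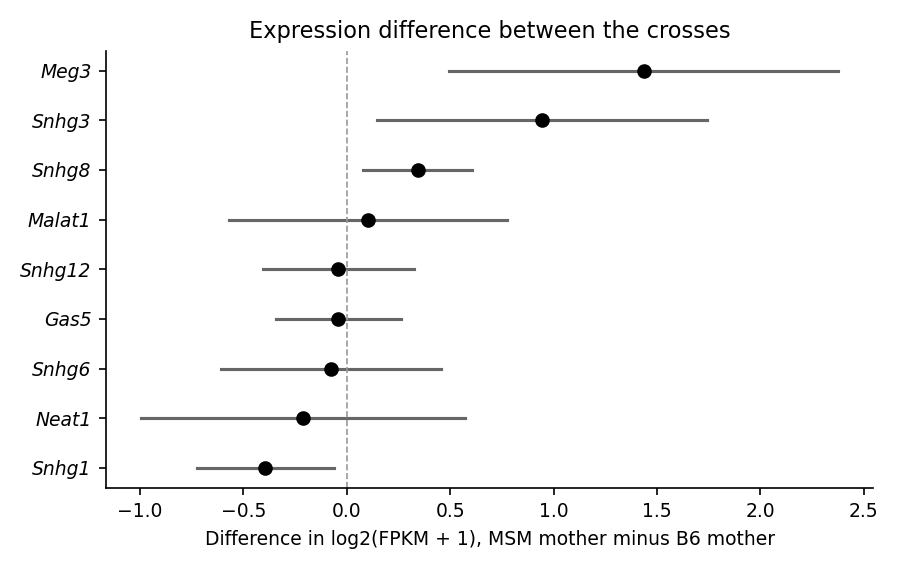
Difference in log2(FPKM + 1) between the crosses for each member, MSM mother minus B6 mother, with the 95% interval from limma (lines) and 0 as a dashed line. The intervals of Meg3, Snhg3 and Snhg8 lie above 0 and that of Snhg1 below, and none of the 9 members had an adjusted p under 0.05.

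The B6-allele frequency separates 2 questions that total expression cannot. A gene expressed more from the chromosome of 1 strain has a frequency away from 0.5 in both crosses, and a gene expressed by parent of origin has a frequency that turns with the cross. The share of genes with a frequency differed along the genome. Within 5 Mb on either side, all 37 of the other listed genes around Gas5 and all 19 around Snhg8 had a frequency, as did 62 of 100 around Snhg3 and 26 of 46 around Meg3. The share was 29 of 158 around Snhg1, 15 of 149 around Neat1 and 0 of 14 around Snhg6, the 3 members without a frequency. It was 14 of 149 around Malat1, which had one. Over the whole series 41.3% of genes had one.

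Meg3 was read almost wholly from the maternal chromosome in every mouse. Its B6-allele frequency was 0 and 0.00929 in the MSM-mother mice and 0.989 and 1 in the B6-mother mice. Put as the share of reads from the maternal allele, these are 1 and 0.991 in the first cross and 0.989 and 1 in the second. The log2 odds of the B6 allele in the MSM-mother mice lay below those of the B6-mother mice, with a difference of -13.18 (SE 0.10, limma adjusted p = 4.97e-04). Frequencies beyond 0.01 and 0.99 were set to these values first, which put both MSM-mother mice at 0.01. The size, SE and p of this difference therefore depend on the limits as well as on the mice. Of 3632 genes 3 were called (0.0826%), and Meg3 was the only called gene among the 6 members. The adjusted p was 0.0561 without MSM-mother replicate 2 and 0.0501 without B6-mother replicate 2, and it was 0.462 with limits 0.001 from either end, where the difference was -16.57.
Splitting the FPKM of each mouse by this frequency gives the level of each parental chromosome. The maternal MSM copy of Meg3 was at 8.40 and 7.10 FPKM, and the maternal B6 copy at 3.91 and 1.12. The paternal copy was at 0 and 0.0666 in the first cross and 0.0439 and 0 in the second. Since nearly all reads were maternal, the difference of Meg3 in total FPKM between the crosses is also the difference between its MSM and B6 copies when inherited from the mother, and it did not pass the adjusted threshold.
The likeness of other genes to Meg3 was measured as the mean absolute difference in B6-allele frequency over the 4 mice. Igf2r, the maternally expressed receptor that clears insulin-like growth factor 2, was nearest with 0.00490. Next came Eef2, a translation elongation factor, with 0.0733. Its frequency was 0.273 and 0 in the MSM-mother mice and 1 in both B6-mother mice. Eef2 was not called between the crosses (limma adjusted p = 0.829). With 2 mice per cross and an unknown number of allele-assigned reads, this does not decide whether Eef2 is expressed by parent of origin. Its likeness to Meg3 in this measure does not decide it either. The third was Sec14l2, a lipid-binding protein, with 0.213. Its frequency was 0.833 and 0 in the MSM-mother mice, which lay far apart, and 1 in both B6-mother mice.
Of the 16 genes fixed for the Dlk1-Dio3 domain and its flanks besides Meg3, 6 were listed, and the domain's own coding genes Dlk1, Rtl1 and Dio3 and its noncoding genes Rian and Mirg were not among them. None of the 6 was called between the crosses in frequency or expression. Wars, the nearest listed gene before Meg3, had a frequency of 0.532 ± 0.0329 (SD, n = 4). Dio3os, named for Dio3 and the nearest listed gene after Meg3, had 0.471 ± 0.0310. The values of Dio3os were 0.430 and 0.494 in the MSM-mother mice and 0.496 and 0.463 in the B6-mother mice, which overlapped. Slc25a47, a mitochondrial carrier of liver, was at 0.609 ± 0.00882 and was the only 1 of the 6 called for imbalance (log2 odds 0.64, limma adjusted p = 0.00669), against 36.2% of all genes.

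**Figure D3:**
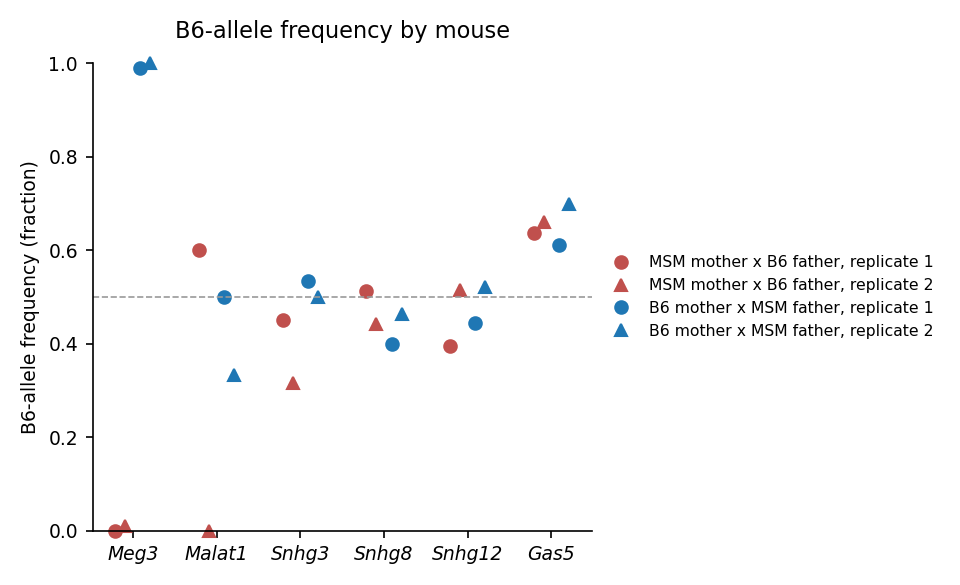
B6-allele frequency of the 6 members that had one, in each of the 4 mice, with equal use of the alleles (0.5) as a dashed line. Meg3 was at 0 to 0.00929 in the MSM-mother mice and at 0.989 to 1 in the B6-mother mice, Gas5 was above 0.6 in every mouse, and Malat1 ran from 0 to 0.6.

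Gas5, known as a growth arrest transcript and a host of box C/D snoRNAs, was expressed more from the B6 allele in both crosses. Its frequency was 0.636 and 0.661 in the MSM-mother mice and 0.611 and 0.699 in the B6-mother mice. All 4 mice were above 0.6, which held for 7.16% of the 3632 genes, while 33.9% had all 4 mice above 0.5. The log2 odds were 0.91 (SE 0.12, 95% interval 0.54 to 1.27, limma adjusted p = 0.0173). Gas5 was the only member of 6 called for imbalance, while 36.2% of all genes were called and 22.6% were called toward B6. The crosses differed by -0.05 in log2 odds (95% interval -0.78 to 0.68, limma adjusted p = 0.989), and their values overlapped.
The mean frequency of 0.652 ± 0.0375 (SD, n = 4) did not reach 0.8, the threshold for biased genes in the study's methods, and a mean of at least 0.8 or at most 0.2 over the crosses was found here in 3.19% of genes. The call was lost with each mouse left out in turn, with adjusted p-values of 0.0762 and 0.0833 without MSM-mother replicates 1 and 2 and 0.0509 and 0.0596 without B6-mother replicates 1 and 2. The log2 odds then ran from 0.77 to 1.05. Divided by allele, the B6 copy was at 2.77 to 3.26 FPKM and the MSM copy at 1.37 to 1.96 over the 4 mice, without overlap.
Serpinc1, which encodes antithrombin and is the nearest listed gene before Gas5, had a frequency above 0.5 by less, at 0.538 ± 0.00544 (SD, n = 4, limma adjusted p = 0.0364). By mean frequency Gas5 was the fourth highest of the 38 genes with a frequency within 5 Mb, whose median without it was 0.507.

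Snhg3, Snhg8 and Snhg12 had mean frequencies a little below 0.5, and none was called. Snhg3 was at 0.451 and 0.315 in the MSM-mother mice and 0.534 and 0.5 in the B6-mother mice. The crosses did not overlap, as in 34.3% of all genes, and the log2 odds differed by -0.80 (SE 0.34, 95% interval -1.83 to 0.23, limma adjusted p = 0.873). In the MSM-mother mice, the MSM copy of Snhg3 was at 6.31 and 16.9 FPKM and the B6 copy at 5.17 and 7.78. In the B6-mother mice the MSM copy was at 3.78 and 4.26 and the B6 copy at 4.33 and 4.26. The mouse with the highest FPKM of Snhg3 thus also had its lowest B6-allele frequency.
Snhg12, the neighbour of Snhg3 on the opposite strand, was at 0.395 and 0.515 in the MSM-mother mice and 0.444 and 0.520 in the B6-mother mice. Replicate 2 was above replicate 1 in both crosses, and the crosses overlapped. Its log2 odds were -0.18 (SE 0.17, 95% interval -0.68 to 0.32, limma adjusted p = 0.439). Snhg8 was at 0.513 and 0.442 in the MSM-mother mice and 0.399 and 0.464 in the B6-mother mice, below 0.5 in 3 of 4 mice, with log2 odds of -0.26 (SE 0.12, 95% interval -0.62 to 0.09, limma adjusted p = 0.171).
Listed genes nearest to these hosts were at or above 0.5 in their means, with the exception of Larp7. Rcc1 had 0.519 ± 0.0448 and Phactr4, after Snhg3, had 0.544 ± 0.0305 (limma adjusted p = 0.0333). Taf12, before Snhg12, had 0.596 ± 0.0652 (limma adjusted p = 0.0954). Sec24d, before Snhg8, had 0.509 ± 0.0162, and Larp7, whose span begins 4029 kb beyond that of Snhg8, had 0.496 ± 0.0283.

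The B6-allele frequency of Malat1 was 0.6 and 0 in the MSM-mother mice and 0.5 and 0.333 in the B6-mother mice. The mice of a cross differed by as much as any of the 4, and the pooled SD within a cross of 0.311 was larger than that of 98.8% of the 3632 genes. The number of allele-assigned reads in each mouse is unknown, so few reads and a difference between mice cannot be told apart. The log2 odds were -1.76 (SE 1.41, 95% interval -6.02 to 2.49, limma adjusted p = 0.387), so that no direction can be given for Malat1. They were 0.04 without MSM-mother replicate 2, and -3.56 without replicate 1 of that cross (limma adjusted p = 0.0436). Over the 6 members, the SD within a cross was 0.00724 for Meg3 and 0.0457 to 0.0712 for the 4 hosts, against a median of 0.0253 over all genes.

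**Figure D4:**
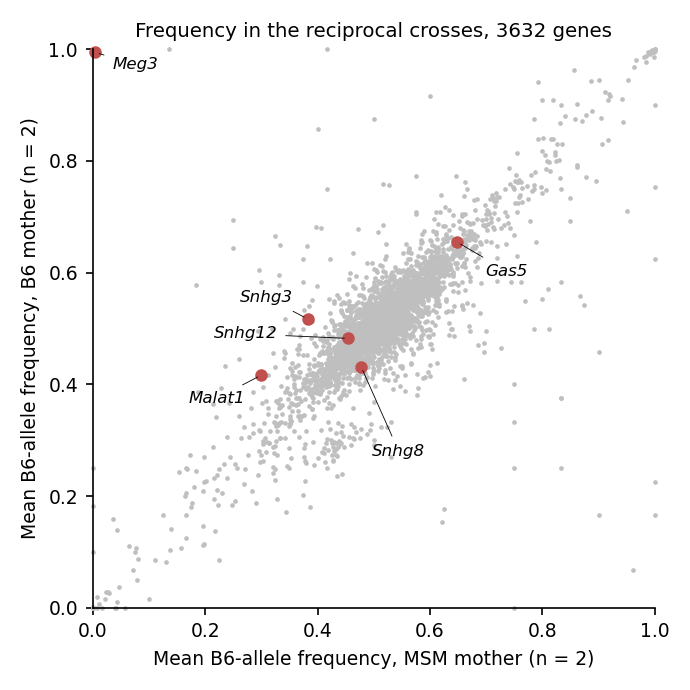
Mean B6-allele frequency in the B6-mother mice against that in the MSM-mother mice, for 3632 genes (grey) and the 6 members (red, named). Meg3 lies in the corner of a frequency near 0 in the MSM-mother mice and near 1 in the B6-mother mice, and Gas5 lies on the diagonal at 0.648 and 0.655.

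**Figure D5:**
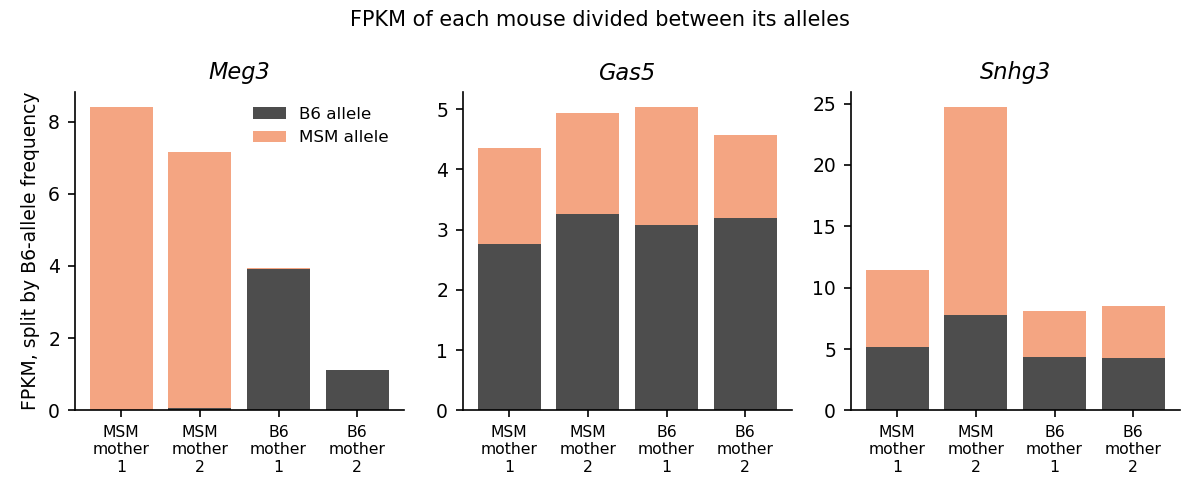
FPKM of Meg3, Gas5 and Snhg3 in each mouse, divided between the B6 and MSM alleles by the B6-allele frequency (FPKM axes differ between panels). The colour of Meg3 turns with the mother, the B6 part of Gas5 is the larger in all 4 mice, and MSM-mother replicate 2 has the largest MSM part of Snhg3, 16.9.

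The snoRNAs themselves are short and have no poly(A) tail, and the libraries were made from poly(A) RNA. Of the 25 within the listed hosts, 3 were in the tables. Snord22, in Snhg1, was listed at 46.0 and 41.6 in the MSM-mother mice and at 23.3 and 0 in the B6-mother mice. Snora16a, in Snhg12, was listed at 0 in 3 mice and at 19.5 in B6-mother replicate 2. Snora44, also in Snhg12, was listed at 0 in 3 mice and at 38.2 in MSM-mother replicate 1. None of the 3 had a frequency.

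Genes that act with these RNAs are read against the share over all genes, which was 8.87% for an unadjusted p under 0.05 in expression (4.46% higher in the MSM-mother mice) and 36.2% for imbalance. Among 16 listed snoRNP proteins, which carry and process snoRNAs, none passed the adjusted threshold in expression between the crosses, 3 had an unadjusted p under 0.05, all higher in the MSM-mother mice, and the median difference was 0.22, against 0.02 over all genes. These 3 were Gar1 (0.45), Nolc1 (0.43) and Znhit3 (0.35). Of the 6 with a frequency, Nolc1 was called toward B6 (0.576 ± 0.0134, limma adjusted p = 0.0118) and Shq1 toward MSM (0.414 ± 0.00867, limma adjusted p = 0.00973). Among 32 listed coding genes that host snoRNAs, many of them ribosomal proteins or translation factors, none had an unadjusted p under 0.05 in expression and none of 15 was called for imbalance.
Among 20 listed factors of nonsense-mediated decay none passed the adjusted threshold in expression, and Upf3a (0.44) and Nbas (-0.28) had an unadjusted p under 0.05. Of 5 with a frequency, Pnrc2 (0.583 ± 0.0150, limma adjusted p = 0.0146) and Magohb (0.579 ± 0.0665, limma adjusted p = 0.0474) were called toward B6. Of 21 listed paraspeckle proteins, partners of Neat1, none had an unadjusted p under 0.05 in expression, and Cpsf6 of 10 with a frequency was called toward B6 (0.549 ± 0.0107, limma adjusted p = 0.0293). Of 25 listed genes of nuclear speckles and Malat1 processing, Srsf3 (0.38) had an unadjusted p under 0.05 in expression. Of 10 with a frequency, the splicing factors Srsf6 (0.537 ± 0.00710), Srsf7 (0.659 ± 0.0566) and Srsf10 (0.577 ± 0.0151) were called toward B6.
Other long noncoding RNAs were looked up as well, and 8 of 48 were listed. None had an unadjusted p under 0.05 in expression, with a median difference of -0.06. By mean FPKM the highest were 1810058I24Rik with 68.0, close to Malat1, 2900097C17Rik with 38.7, and Xist, the RNA that coats the inactive X chromosome, with 30.7. Xist had a frequency of 0.760 and 0.533 in the MSM-mother mice and 0.748 and 0.7997 in the B6-mother mice (log2 odds 1.35, SE 0.30, limma adjusted p = 0.0461), and 2900097C17Rik had 0.474 ± 0.0253. Snhg5, another snoRNA host, was at 3.87 and 4.74 in the MSM-mother mice and 4.08 and 4.71 in the B6-mother mice, a level like that of Gas5.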

How the data were processed

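Liver mRNA of 4 F1 mice was analyzed, 2 per reciprocal cross, with the group and replicate number taken from the sample titles. The authors deposited FPKM values per gene and a B6-allele frequency, a fraction from 0 to 1. Per the paper's methods and the labels, TopHat2 was the aligner used by the authors, after adapter trimming by Trim Galore, on an mm10 genome in which SNP positions were masked, with at most 1 alignment per read. SNPsplit assigned reads to alleles and Cuffdiff counted them. Versions are not given in the sources used here. A supplementary table says that a frequency was given to genes with over 10 allele-assigned reads.

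From these values, limma 3.58.1 in R 4.3.3 was fitted on all genes. Expression used log2(FPKM + 1) with a variance trend and a filter of mean FPKM of at least 1, which every listed gene passed (lowest mean 2.50). Frequencies below 0.01 or above 0.99 were set to those limits before conversion to log2 odds. Imbalance was tested on the mean over the crosses, and parent of origin on their difference. All were two-sided at a Benjamini-Hochberg adjusted p of 0.05, and were checked on simulated data. Alternatives changed the scaling, pseudocount, filter, limits and replicate block, or left out each mouse. Signed differences are MSM mother minus B6 mother. p-values rest on the spread between these mice and on variances shared over genes. For frequencies near 0 or 1, as for Meg3, they rest also on the limits. FPKM by allele is FPKM times the frequency.

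Named are all listed members, the listed genes nearest on each side, the 3 genes most like Meg3 in frequency, and, of each gene list, genes called or highest in FPKM. A neighbouring gene under this rule is left out here. Genes with an unadjusted p under 0.05, Snhg5, Cyp2e1, the snoRNAs and unlisted genes were named after their values were seen. The members and gene lists were chosen with earlier results of these data known, and the start-site measures after the sequences were seen. Positions came from GENCODE M21, or from RefSeq for 344 genes not found there. Python 3.11.15, numpy 2.4.6, pandas 2.3.3 and matplotlib 3.10.9 were used.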

Additional observations from a re-analysis of the deposited data

Results flagged for a closer look

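The allelic use of Meg3 differed between the reciprocal crosses by the interaction of allele and cross. The log2 odds of the B6 allele, MSM mother minus B6 mother, differed by -13.18 (limma adjusted p = 4.97e-04), with the frequency at 0 and 0.00929 in the MSM-mother mice and at 0.989 and 1 in the B6-mother mice. All 4 mice showed the direction. The size and p of this difference depend on the limits of 0.01 and 0.99 set on the frequency. With limits 0.001 from either end the limma adjusted p was 0.462.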

How the results depend on the processing

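Precision is limited by 2 mice per cross and by the unknown number of reads behind each value. Of 216 values of single members under alternatives, 188 kept their direction and their side of the threshold. Most were uncalled in the main fit and stayed so, and some settings could not move an estimate. Leaving out the filter changed nothing. The replicate block, the filter at 5 and dropping the variance trend changed p-values or the genes tested, but no estimate. In expression, scaling to equal summed FPKM called 20 genes (4 higher and 16 lower with an MSM mother, against 0 and 4), moved the median over all genes from 0.02 to -0.10, and turned Malat1 to -0.024, the only member whose direction changed with a scaling. The replicate number as a block called 285 genes and 2 of the members, Meg3 and Snhg3, and 775 genes for imbalance. Replicate differences of the crosses correlated over genes by 0.00375 in expression and 0.147 in log2 odds, and with 2 pairs the numbers were not taken to pair mice. A mean FPKM of at least 5 leaves Gas5 out, so that 0 members were called for imbalance. Limits 0.001 from either end left 1 gene and 0 members called between the crosses in frequency. The causes of the other changes were not tested.
With each mouse left out in turn, 13 to 21 genes and 0 to 1 members were called in expression, 181 to 514 genes and 0 to 1 members for imbalance, and 0 to 6 genes and 0 to 1 members between the crosses in frequency. Directions that turned were those of uncalled members. In expression, Malat1 ran from -0.31 to 0.51, Neat1 from -0.58 to 0.15, Gas5 from -0.12 to 0.036, Snhg6 from -0.34 to 0.18 and Snhg12 from -0.17 to 0.092. For imbalance Malat1 ran from -3.56 to 0.042. Between the crosses in log2 odds, Malat1 ran from -6.13 to 1.08, Gas5 from -0.33 to 0.23 and Snhg12 from -0.51 to 0.19.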
